A study of Mus musculus with 15 samples.

Results

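Mouse CD4 T cells that had been primed in Batf3-/- or in wild-type (WT) hosts were compared by RNA sequencing, within the activated cells that had lost CD62L from their surface. The comparison takes 6 of the 15 libraries of the series, the 3 of CD62L- cells from Batf3-/- recipients and the 3 of CD62L- cells from WT C57BL/6 recipients, and every gene of the count table. The sequenced cells were donor OT-II cells, whose transgenic T cell receptor recognises a peptide of ovalbumin, and they carried the congenic mark CD45.1. Donor cells were sorted as naive from untreated CD45.1 × OT-II mice and were themselves Batf3-sufficient, so only the host lacked Batf3. Recipients of both kinds received intranasal ovalbumin (60 µg) with papain (30 µg), a plant protease that acts as an airway allergen, in 3 doses that began 24 hours after the transfer. CD44 high donor cells were sorted from the mediastinal lymph node, which drains the lung, 5 days after immunization, and divided into CD62L- and CD62L+ cells. The CD62L+ cells of the same 2 kinds of host and naive donor cells, 3 libraries each, complete the series. The labels give no age or sex, and do not say how many animals stand behind a library, so a p-value here reflects the scatter among libraries, which may be partly technical. That scatter was estimated within the groups of all 15 libraries, not from the 6 compared alone. In bulk samples such as these, fewer cells of a kind and less RNA per cell cannot be told apart.

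Batf3 is a transcription factor that type 1 conventional dendritic cells need for their development, and mice without it lack most of these cells. Type 1 conventional dendritic cells excel at presenting antigen on MHC class I and at making interleukin 12, while other dendritic cells mainly start the T helper 2 (Th2) and T follicular helper (Tfh) responses that protease allergens evoke. CD62L is the adhesion receptor that lets T cells enter lymph nodes, and activated CD4 T cells that shed it include effector cells and Tfh cells.

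Counts assigned to genes summed to between 38082967 and 64938211 in the WT and between 77620291 and 89129489 in the Batf3-/- CD62L- libraries, without overlap, and 19260 to 19942 against 20060 to 20805 genes had counts. Loci of ribosomal RNA took 4.33 to 10.2% of the WT and 3.86 to 16.7% of the Batf3-/- counts. Mitochondrial genes took 1.39 to 2.37% and 1.65 to 2.20%, and cytosolic ribosomal protein genes 2.85 to 3.10% and 3.30 to 3.78%. The third WT library was the shallowest and lay at -48.6 on the second principal component, against -17.9 and -25.8 for the other WT libraries and -3.8 to 1.7 for the Batf3-/- libraries. The summed CD4 T cell markers reached 26420 to 28070 CPM in WT and 24910 to 26140 CPM in Batf3-/- recipients, where CPM are counts scaled to a common library size, in edgeR's usual unit. Batf3 itself had 4 counts over the 3 WT and 0 over the 3 Batf3-/- CD62L- libraries and 49 counts over all 15 libraries. In CPM it stood at 0.0297, 0 and 0.0555 in the WT and at 0 in each Batf3-/- CD62L- library, too low to test, and its level in donor cells says nothing about the hosts.

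Few genes passed the test between the hosts. Of 19942 genes tested, 10 passed a Benjamini-Hochberg adjusted p of 0.05 in edgeR's quasi-likelihood test (0.0501%), 5 higher in cells from Batf3-/- recipients (0.0251%) and 5 lower (0.0251%). The motor protein gene Myo6, the class I MHC gene H2-Q2, the chemokine signalling brake Rgs1, the ecto-enzyme gene Art2b and the antigen receptor signalling gene Malt1 were lower. The interferon-induced Oas1a, the creatine kinase gene Ckb, Dapl1 and Wdfy4 were among those higher. At adjusted p thresholds of 0.1 and 0.2 the counts were 36 and 180, and 2101 genes (10.5%) had an unadjusted p under 0.05. DESeq2's Wald test called 431 genes, 219 higher and 212 lower, all 10 among them. Limma voom called 79, 25 higher and 54 lower, with 8 of the 10 among them. A gene is said to be called where it passed in edgeR's quasi-likelihood test without the replicate term. The median log2 fold change over all genes tested was 0.01, a value that scaling the libraries holds near 0.

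The replicate numbers of the libraries went together between the hosts, as described with the processing, and with the replicate number as a term in the fit 74 genes passed (0.371%), 41 higher (0.206%) and 33 lower (0.165%), among them all 10. Genes that passed only with this term are named as such in what follows. The count was also sensitive to single libraries. It was 31 without the first WT library, 5 without the second WT library, 5 without the third WT library and 4 without the second Batf3-/- library, and 9 without the third library of both groups, of which 6 were among the 10. With every library thinned to the lowest total it was 12, all 10 among them. With the 6 compared libraries fitted alone it was 0, so none of the 10 passed. In that fit 17434 genes were tested and 1082 had an unadjusted p under 0.05.

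The promoters of the 3 genes with the smallest adjusted p are shown so that the letters before an interferon-induced gene can be set beside those of a class I MHC gene and a motor protein gene. Each sequence is the 250 bases before the RefSeq transcription start (RefSeq, build GRCm38.p6), written 5′ to 3′ on the gene's strand, H2-Q2 from chr17:35342057-35342306 on the plus strand, Oas1a from chr5:120907526-120907775 on the minus strand and Myo6 from chr9:80164784-80165033 on the plus strand. Capitals mark matches to the core of the interferon-stimulated response element, searched as GAAANNGAAA on both strands.
H2-Q2: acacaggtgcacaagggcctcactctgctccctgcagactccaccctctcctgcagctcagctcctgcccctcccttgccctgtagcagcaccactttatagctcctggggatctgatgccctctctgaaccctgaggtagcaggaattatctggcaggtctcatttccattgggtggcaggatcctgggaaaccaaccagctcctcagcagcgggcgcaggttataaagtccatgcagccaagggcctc
Oas1a: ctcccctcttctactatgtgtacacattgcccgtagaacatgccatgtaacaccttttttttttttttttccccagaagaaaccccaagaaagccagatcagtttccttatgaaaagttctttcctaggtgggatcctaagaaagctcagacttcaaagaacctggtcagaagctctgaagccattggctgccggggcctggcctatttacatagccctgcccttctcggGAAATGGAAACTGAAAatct
Myo6: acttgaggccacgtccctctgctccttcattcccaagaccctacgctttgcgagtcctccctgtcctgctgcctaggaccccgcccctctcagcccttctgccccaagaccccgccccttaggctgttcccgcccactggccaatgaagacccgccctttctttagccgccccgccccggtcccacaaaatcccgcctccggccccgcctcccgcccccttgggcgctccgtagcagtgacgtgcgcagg
In the Oas1a promoter 2 matches overlapped, at -20 to -11 and at -14 to -5 from the start. The other promoters shown had none, and 2.98% of 32851 RefSeq windows of this length held a match. The AP-1 motif, searched as TGANTCA on both strands, was in 6.75% of the windows and in none of these 3.

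Myo6 showed the largest decrease among the 10 genes. It encodes myosin VI, an actin motor that moves cargo inward from the cell edge, and lies at chr9:80165031-80311729 (mm10, the span of its exons in the count table, as for the other positions given here). Its level was 37.3, 37.9 and 47.2 CPM in the WT libraries and 8.94, 9.28 and 11.4 CPM in the Batf3-/- libraries. The highest Batf3-/- library stood far below the lowest WT library, and the mean was 4.13-fold lower (log2 fold change -2.05, SE 0.24, adjusted p = 0.00413). In CD62L+ cells, whose libraries do not enter this contrast, Myo6 averaged 33.7 ± 2.76 CPM in WT and 7.47 ± 2.91 CPM in Batf3-/- recipients (mean ± SD, n = 3, here and in the other averages; log2 fold change -2.17, adjusted p = 0.00655), and it was the 1 gene called there (0.00501%). The recipient differences of the 2 subsets were -2.05 and -2.17 on the log2 scale, and the test of the difference between them gave 0.12 (SE 0.33, adjusted p = 1).

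H2-Q2, at chr17:35342242-35346762, is a class Ib gene of the Qa region of the MHC. It was measured at 174, 182 and 169 CPM in the WT libraries and 89.4, 83.0 and 93.1 CPM in the Batf3-/- libraries. The groups lay far apart with little scatter within either, and the mean was 1.98-fold lower in Batf3-/- recipients (log2 fold change -0.98, SE 0.11, adjusted p = 0.00413). CD62L+ cells held much less of it, 25.9 ± 2.22 CPM in WT and 19.6 ± 0.640 CPM in Batf3-/- recipients (log2 fold change -0.40, adjusted p = 0.449), and naive cells 3.51 CPM. H2-Q genes are near-identical to each other, so reads could have been split among them and the value of H2-Q2 alone is uncertain.

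Rgs1, Art2b and Malt1 fell by less. Rgs1 (chr1:144242296-144249242) speeds up the inactivation of G proteins and so damps chemokine receptor signals. Its values were 330.1, 412 and 476 CPM in the WT libraries and 208, 255 and 198 CPM in the Batf3-/- libraries, without overlap (log2 fold change -0.88, SE 0.14, adjusted p = 0.0331). Art2b (chr7:101576970-101585600) encodes a surface enzyme that uses extracellular NAD to modify proteins of the T cell membrane. It stood at 149.9, 179.9 and 176 CPM in the WT libraries and 88.5, 102 and 107 CPM in the Batf3-/- libraries (log2 fold change -0.76, SE 0.12, adjusted p = 0.0289). The 3 WT values all exceeded the 3 Batf3-/- values, and its near-identical neighbour Art2a makes the count of either gene uncertain. Malt1 (chr18:65430963-65478823) encodes the protease of the complex that links the antigen receptor to NF-kB. It was found at 209, 237 and 269.9 CPM in the WT libraries and 152, 144 and 135 CPM in the Batf3-/- libraries, again without overlap (log2 fold change -0.73, SE 0.11, adjusted p = 0.0289). Without the third library of both groups the adjusted p of Rgs1, Art2b and Malt1 was 0.277, 0.167 and 0.239, and their log2 fold changes were -0.69, -0.80 and -0.60. Of the 6 fits that left out 1 library, Rgs1 and Malt1 passed in 1, without the first WT library, and Art2b in 2, without that or the third Batf3-/- library. In the other fits of this kind their adjusted p lay between 0.051 and 0.133. In CD62L+ cells none of these was called, with log2 fold changes of -0.70, -0.61 and -0.38.

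Among the genes that rose, Oas1a (chr5:120896256-120907521) had the smallest adjusted p. It encodes an oligoadenylate synthetase, which senses double-stranded RNA and is induced by interferon, and it is the gene whose promoter above carries the interferon motif. Its level was 32.5, 32.3 and 28.0 CPM in the WT libraries and 61.2, 64.3 and 81.9 CPM in the Batf3-/- libraries. Every Batf3-/- library held more than any WT library, on average 2.24-fold (log2 fold change 1.16, SE 0.13, adjusted p = 0.00413). CD62L+ cells stood at 32.1 ± 1.52 CPM in WT and 59.1 ± 1.42 CPM in Batf3-/- recipients, groups that did not overlap (log2 fold change 0.88, adjusted p = 0.0669). Oas1g, a near-identical neighbour, could share reads with it.

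Dapl1 and Ckb also rose. Dapl1 (chr2:59484653-59505020), a gene of resting T cells, was at 7.03, 7.30 and 9.16 CPM in the WT libraries and 15.6, 16.8 and 15.1 CPM in the Batf3-/- libraries, 2.02-fold higher without overlap (log2 fold change 1.02, SE 0.13, adjusted p = 0.0126). It averaged 34.4 ± 2.76 CPM in WT and 35.8 ± 3.44 CPM in Batf3-/- recipients in CD62L+ cells and 35.1 CPM in naive cells, above every CD62L- library. Ckb (chr12:111669355-111672338) encodes the brain-type creatine kinase, which buffers ATP. It was at 24.4, 31.8 and 25.3 CPM in the WT libraries and 50.1, 52.9 and 69.3 CPM in the Batf3-/- libraries, without overlap (log2 fold change 1.08, SE 0.17, adjusted p = 0.0331). CD62L+ cells held 42.6 ± 7.42 CPM in WT and 50.8 ± 3.27 CPM in Batf3-/- recipients (log2 fold change 0.25, not called). Leaving out the third library of both groups gave Ckb an adjusted p of 0.277 at a log2 fold change of 0.87, while Dapl1 kept its call in that fit. Ckb passed in 1 of the 6 fits that left out 1 library, without the first Batf3-/- library (adjusted p up to 0.156 in the others). Dapl1 passed in 4, and its adjusted p was 0.0806 without the second WT and 0.0714 without the second Batf3-/- library.

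Wdfy4 (chr14:32959547-33185508) is known in mice for its part in cross-presentation by type 1 conventional dendritic cells and is also transcribed in B cells. It lies below the size limit of the naming rule and was added after its values were seen. It had 2 counts over the WT and 262 over the Batf3-/- libraries, a ratio of 89.1 after scaling for library size (exact 95% binomial interval 24.4 to 740.0, which covers counting error only). In CPM this was 0, 0 and 0.0555 in the WT and 0.984, 1.35 and 0.930 in the Batf3-/- libraries (adjusted p = 0.0289). The CD62L+ libraries all lay above the CD62L- libraries, with Wdfy4 at 2.58 ± 0.816 CPM in WT and 2.37 ± 0.701 CPM in Batf3-/- recipients, and it was not called there. Its adjusted p was 0.0594 and 0.115 without the first or second WT library and 0.0842 without the second Batf3-/- library. Limma voom did not call Wdfy4.

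**Figure D1:**
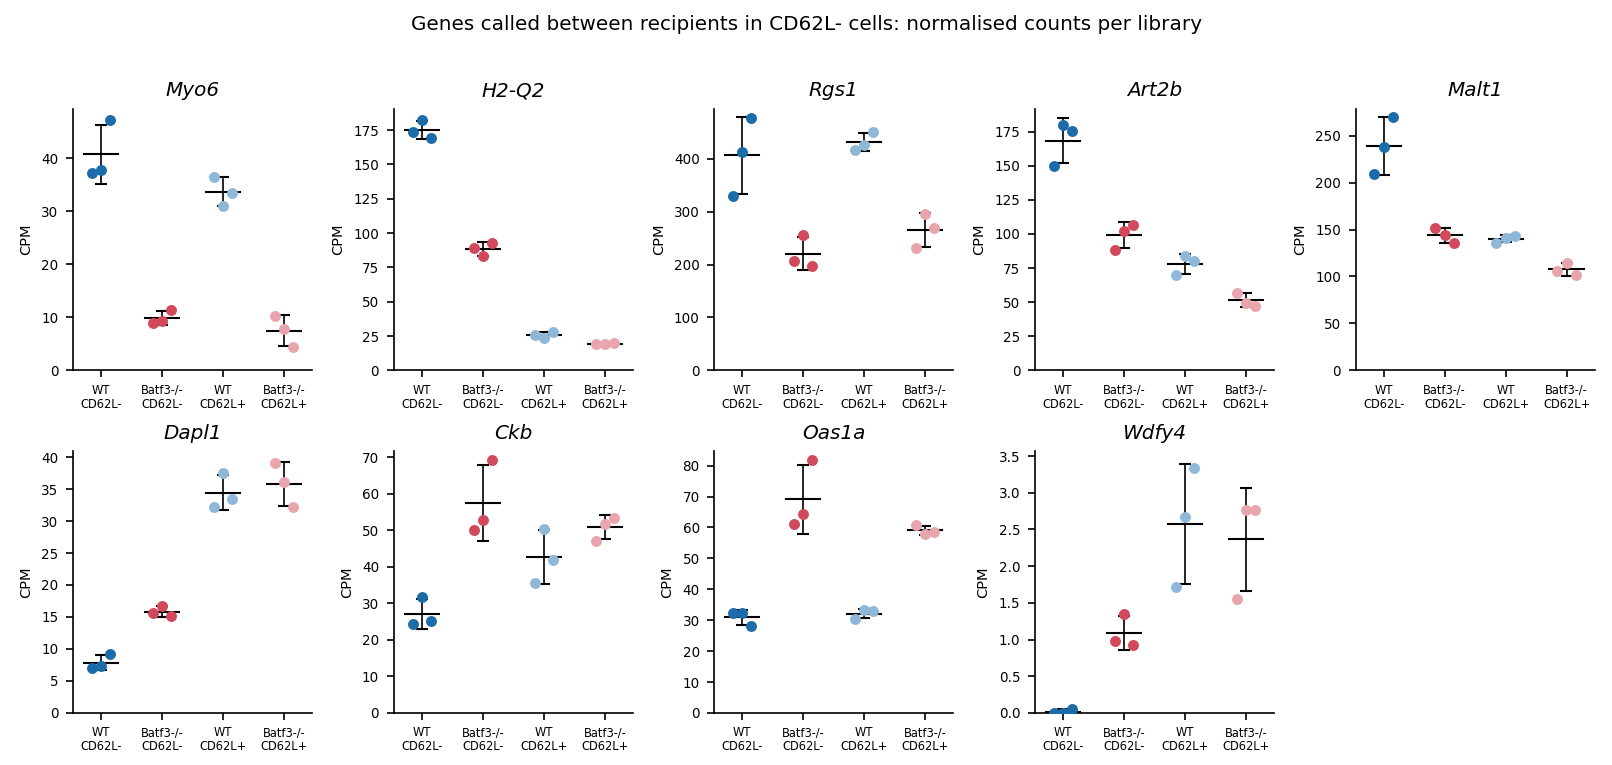
Normalised counts (CPM, linear axis from 0) of 9 of the 10 called genes in each library of the 4 primed groups, with points for libraries, horizontal bars for group means and error bars for the SD (n = 3). In the CD62L- cells, the first and second groups of each panel, the WT and Batf3-/- points do not overlap for any of the 9, and Myo6 shows a gap in the CD62L+ cells too.

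**Figure D2:**
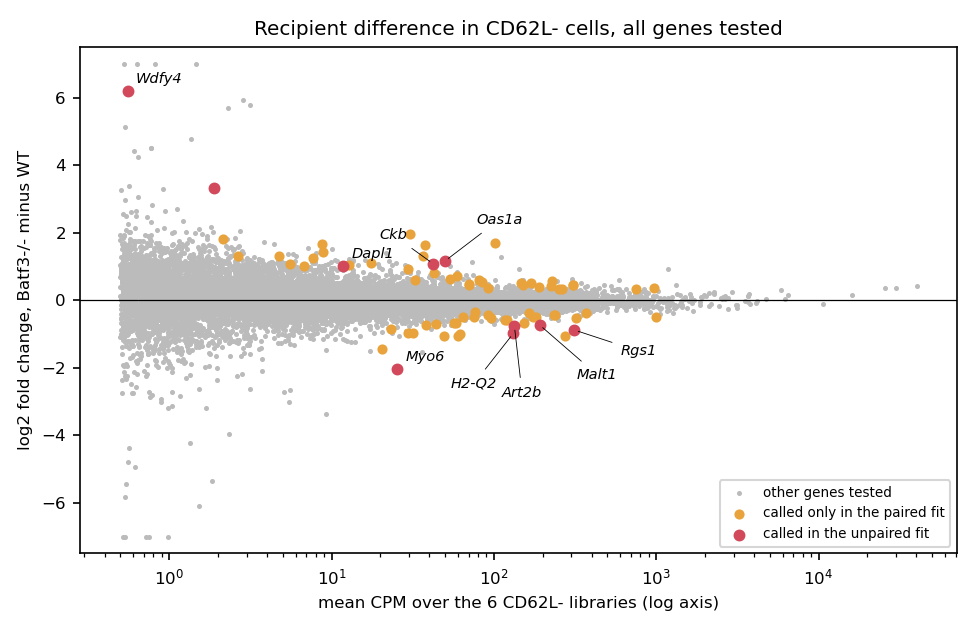
Log2 fold change of each gene (Batf3-/- minus WT, CD62L- cells) against its mean CPM over the 6 libraries (log axis), for the 14985 genes with a mean of at least 0.5 CPM. The 10 called genes are red, 9 of them with their names, and the further genes called when replicate numbers were paired are orange, 9 genes beyond the axis are drawn at its edge, and the fitted value of Wdfy4 rests on 2 WT counts.

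Genes of the type I interferon response were mostly higher in cells from Batf3-/- recipients. These genes are switched on through the receptor for interferon alpha and beta, and encode antiviral proteins. Of 27 listed genes, all tested, 21 had a log2 fold change above 0, against 51% of all genes, and 13 had 3 Batf3-/- values above all 3 WT values, against 8.44% of all genes; 0 had all 3 below. The median was 0.47, against 0.01 over all genes. Oas1a was the 1 member called. DESeq2 called 7 higher and limma voom 2, against 219 and 25 of all genes tested. With the replicate term Oasl2, Mx2 and Usp18 passed as well.

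Among the effectors, Oasl2, a relative of Oas1a, was at 5.04, 5.16 and 2.36 CPM in the WT libraries and 12.7, 13.4 and 13.7 CPM in the Batf3-/- libraries (log2 fold change 1.65, SE 0.31, adjusted p = 0.0757 without and 0.0225 with the replicate term). Mx2, a dynamin-like antiviral GTPase, was at 2.05, 3.09 and 3.08 CPM in the WT libraries and 5.43, 6.53 and 8.21 CPM in the Batf3-/- libraries (log2 fold change 1.30, SE 0.28, adjusted p = 0.114 without and 0.0398 with the replicate term). Both genes were higher in every Batf3-/- library than in any WT library. Ifit3b, of the family that binds foreign RNA, was at 3.74, 4.51 and 2.86 CPM in the WT libraries and 10.4, 9.57 and 4.71 CPM in the Batf3-/- libraries and Oas2 at 1.82, 2.84 and 1.67 CPM in the WT libraries and 6.33, 5.23 and 8.69 CPM in the Batf3-/- libraries, also without overlap, and neither passed (adjusted p = 0.154 and 0.198). The ubiquitin-like Isg15 had 26.1 ± 5.93 CPM in WT and 37.5 ± 3.33 CPM in Batf3-/- recipients, a gap that was narrow beside the WT spread (adjusted p = 0.365).

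Among the regulators, Usp18, which removes Isg15 from proteins and dampens the interferon receptor, was at 25.7, 21.5 and 15.6 CPM in the WT libraries and 65.8, 51.6 and 39.6 CPM in the Batf3-/- libraries (log2 fold change 1.32, SE 0.28, adjusted p = 0.117 without and 0.00356 with the replicate term). In both groups the first library was the highest and the third the lowest, and the groups did not overlap. Reads of Gm44148, whose exons overlap those of Usp18, could enter its count. The transcription factor Irf7 was at 94.8 ± 6.18 CPM in WT and 110.5 ± 4.42 CPM in Batf3-/- recipients, with a log2 fold change of 0.22, and was not called. The receptor subunit gene Ifnar1, from the list of cytokine receptors, went the other way, with 189, 177 and 191 CPM in the WT libraries and 154, 130.5 and 142 CPM in the Batf3-/- libraries, values that did not overlap (log2 fold change -0.38, SE 0.08, adjusted p = 0.122 without and 0.0417 with the replicate term). Of the 20 list members with a RefSeq promoter, 9 carried the interferon motif in at least 1 window, against 2.98% of all windows. The first is counted by gene and the second by window, so the 2 are not strictly alike. Ifit1, Ifit3, Ifit3b, Isg15 and Bst2 were among them. Log2 fold changes ran from -0.03 to 1.16 with the motif and from -0.22 to 1.65 without it. Oasl2 (1.65) and Ifi44 (1.52) had no match.

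The CD62L+ cells gave this list a median of 0.41, with 22 members above 0 (50% of all genes there) and 12 members higher and 1 lower without overlap (6.9% and 6.22% of all genes there), and none called. Some members differed little there. Mx2 averaged 6.08 ± 0.946 CPM in WT and 6.07 ± 1.98 CPM in Batf3-/- recipients.

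**Figure D3:**
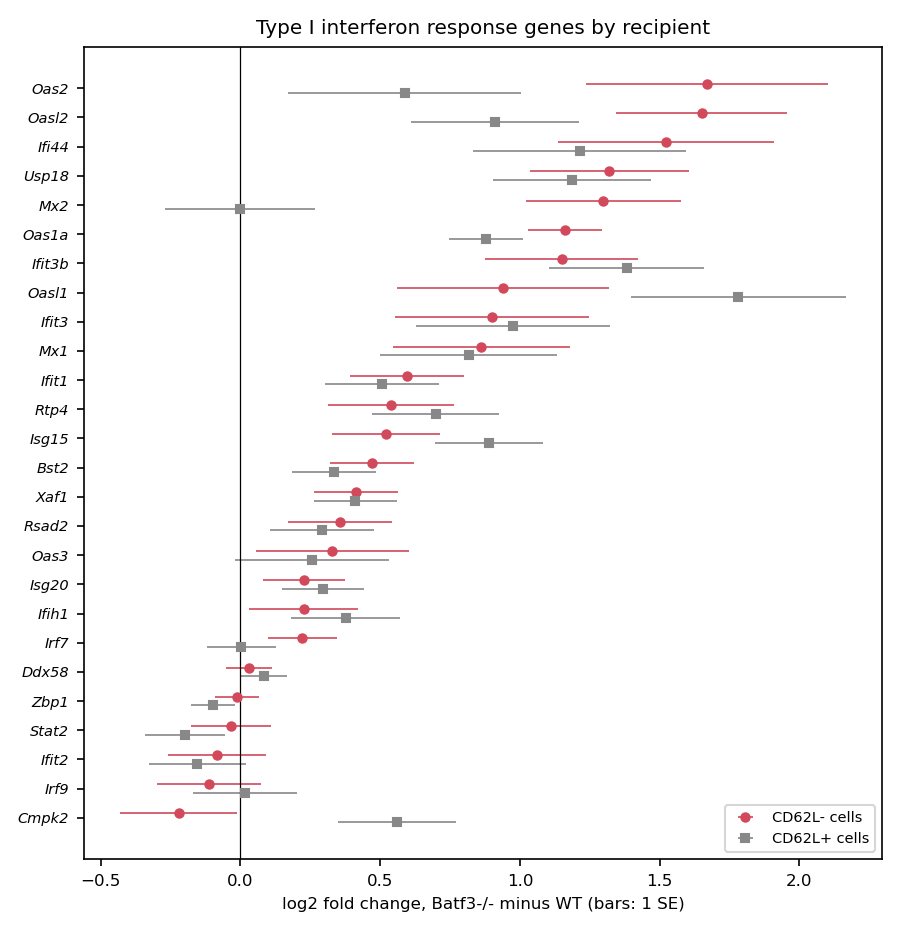
Log2 fold changes (Batf3-/- minus WT) of 26 of the 27 listed type I interferon response genes in CD62L- cells (red circles) and CD62L+ cells (grey squares), with bars of 1 SE from the fit. In CD62L- cells 21 of the 26 lie above 0, led by Oas2, Oasl2, Ifi44, Usp18 and Mx2.

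Th2 genes mostly had log2 fold changes below 0 in cells from Batf3-/- recipients, and edgeR's test without the replicate term called none of them. DESeq2 called 3 lower and limma voom 2, against 212 and 54 of all genes tested. Without the third Batf3-/- library edgeR called 1 lower, against 6 of all genes. At an unadjusted p under 0.05 in edgeR there were 5, against 10.5% of all genes. Of 20 listed genes 16 were tested, 13 with a log2 fold change below 0; 7 had all Batf3-/- values below all WT values, against 5.69% of all genes, and 0 had all above. The median was -0.47. It ran from -0.85 without the third Batf3-/- library to -0.27 without the second WT library, with -0.31 without the first Batf3-/- library, and was -0.76 without the third library of both groups. Il4, the cytokine that drives Th2 differentiation and class switching in B cells, was at 29.2, 31.6 and 29.2 CPM in the WT libraries and 13.2, 11.4 and 8.06 CPM in the Batf3-/- libraries (log2 fold change -1.46, SE 0.32, adjusted p = 0.134 without and 0.0277 with the replicate term). The WT libraries were close to each other and all more than the highest Batf3-/- library. Il17rb, a subunit of the interleukin 25 receptor, was at 62.2, 63.3 and 73.3 CPM in the WT libraries and 27.6, 26.4 and 41.8 CPM in the Batf3-/- libraries (log2 fold change -1.05, SE 0.20, adjusted p = 0.0817 without and 0.0417 with the replicate term). Both genes passed with the replicate term, the only members to do so.

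The Th2 master factor Gata3 was at 387, 393 and 433 CPM in the WT libraries and 337, 276 and 342 CPM in the Batf3-/- libraries, a small gap without overlap (adjusted p = 0.361). The chemokine receptor gene Ccr4 was at 25.4, 36.4 and 43.6 CPM in the WT libraries and 11.1, 18.8 and 21.1 CPM in the Batf3-/- libraries and was not called (adjusted p = 0.665). The remaining 3 without overlap had low levels, lower still in every Batf3-/- library. The interleukin 33 receptor gene Il1rl1 was at 2.85, 1.68 and 4.53 CPM in the WT libraries and 0, 0.128 and 0 CPM in the Batf3-/- libraries (adjusted p = 0.31). Il10, a cytokine that restrains inflammation, was at 4.58, 6.17 and 7.38 CPM in the WT libraries and 0.599, 1.52 and 2.13 CPM in the Batf3-/- libraries (adjusted p = 0.356). Pparg, a lipid-sensing nuclear receptor of Th2 cells, was at 1.69, 1.34 and 1.11 CPM in the WT libraries and 0.235, 0 and 0.349 CPM in the Batf3-/- libraries (adjusted p = 0.527). The interleukin 13 gene Il13 had 24 counts in 1 WT library and none in the other CD62L- libraries, so it was not tested. In CD62L+ cells the list's median was -0.23, with 4 members lower and 1 higher without overlap (6.22% and 6.9% of all genes there).

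The list of Tfh genes had a median nearer 0, -0.12. Without the first Batf3-/- library it was -0.05. All 20 listed genes were tested and none was called in edgeR, with 3 at an unadjusted p under 0.05, against 10.5% of all genes. Of the 20, 13 lay below 0 and 4 were lower without overlap, against 5.69% of all genes. DESeq2 and limma voom each called 1 lower, Cxcr5 (adjusted p = 0.0433 and 0.0365), against 212 and 54 of all genes tested. Cxcr5, the chemokine receptor that leads T cells into B cell follicles, was at 322, 324 and 277 CPM in the WT libraries and 272, 236 and 247 CPM in the Batf3-/- libraries (log2 fold change -0.29, SE 0.10, adjusted p = 0.328). Bcl6, the transcriptional repressor that defines Tfh cells, was at 128, 111 and 124 CPM in the WT libraries and 104, 90.6 and 90.7 CPM in the Batf3-/- libraries (log2 fold change -0.35, SE 0.12, adjusted p = 0.335). Il21, their cytokine, was at 102, 91.3 and 118 CPM in the WT libraries and 88.3, 86.2 and 75.9 CPM in the Batf3-/- libraries (log2 fold change -0.31, SE 0.17, adjusted p = 0.545), and reads of the antisense Gm12534 could enter its count. Sh2d1a, the adaptor SAP that sustains contact with B cells, was at 267, 254 and 272 CPM in the WT libraries and 250.4, 213 and 190.0 CPM in the Batf3-/- libraries (adjusted p = 0.349). For each of these 4 the highest Batf3-/- library was below the lowest WT library. Pdcd1 and Icos, receptors that Tfh cells carry in large amounts, overlapped fully, at 276 ± 38.3 CPM in WT and 286 ± 39.6 CPM in Batf3-/- recipients and at 554 ± 74.8 CPM in WT and 554 ± 70.2 CPM in Batf3-/- recipients. Tcf7, a factor of both resting and Tfh cells, was at 1711 ± 143 CPM in WT and 1609 ± 135 CPM in Batf3-/- recipients.

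Of the 12 tested coinhibitory receptor genes, 2 were lower without overlap and 0 higher, against 5.69% and 8.44% of all genes, with a median of -0.02 (-0.17 without the first WT library). None was called in edgeR, with 2 at an unadjusted p under 0.05, against 10.5% of all genes. DESeq2 and limma voom called 2 lower each, against 212 and 54 of all genes tested. Tigit, a receptor that competes with CD226 for shared ligands, was at 314, 366 and 438 CPM in the WT libraries and 156, 168 and 209 CPM in the Batf3-/- libraries (log2 fold change -1.07, SE 0.25, adjusted p = 0.154 without and 0.0117 with the replicate term). Cd160, which binds the TNF receptor family member HVEM, was at 73.5, 86.4 and 87.5 CPM in the WT libraries and 40.2, 45.4 and 38.6 CPM in the Batf3-/- libraries (log2 fold change -0.99, SE 0.20, adjusted p = 0.114 without and 0.0231 with the replicate term). Both were lower in every Batf3-/- library, by a mean of 2.09-fold and 1.99-fold. In CD62L+ cells Tigit was lower too, at 45.6 ± 8.57 CPM in WT and 25.9 ± 6.56 CPM in Batf3-/- recipients (log2 fold change -0.81, adjusted p = 0.578), while Cd160 was higher, at 9.40 ± 2.58 CPM in WT and 19.1 ± 2.80 CPM in Batf3-/- recipients (log2 fold change 1.03, adjusted p = 0.163). The test of the difference between the subsets gave Cd160 -2.02 on the log2 scale (SE 0.29), with an adjusted p of 0.135 without and 0.0117 with the replicate term in edgeR, 1.29e-07 in DESeq2 and 0.00743 in limma voom. Reads of Pdzk1, whose exons overlap those of Cd160, could enter its count.

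Of 18 lymph node homing and quiescence genes 10 lay above 0, and their median was 0.06, which turned to -0.02 without the third WT or without the second Batf3-/- library. Dapl1 was called, and Igfbp4 passed with the replicate term. Igfbp4, an insulin-like growth factor binding protein gene, was at 6.26, 8.71 and 9.91 CPM in the WT libraries and 8.76, 19.9 and 23.0 CPM in the Batf3-/- libraries and overlapped in 1 library (log2 fold change 1.06, SE 0.36, adjusted p = 0.328 without and 0.041 with the replicate term). Ccr7, the receptor for the chemokines of the T cell zone, was at 861 ± 134 CPM in WT and 1074 ± 380.2 CPM in Batf3-/- recipients, and Klf2 and S1pr1, which govern exit from the node, were at 100.2 ± 26.2 CPM in WT and 88.0 ± 20.6 CPM in Batf3-/- recipients and at 192 ± 47.6 CPM in WT and 170.4 ± 15.9 CPM in Batf3-/- recipients, all with overlapping groups and none called.

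**Figure D4:**
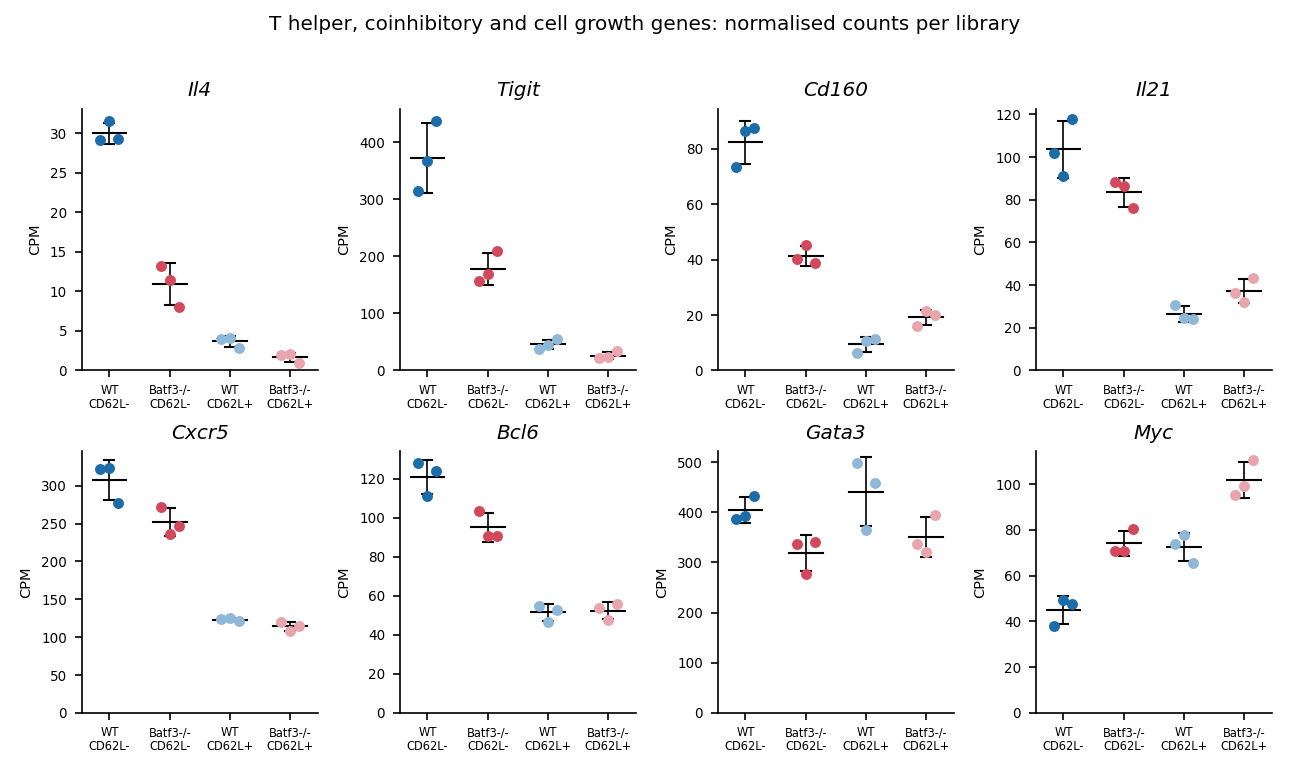
Normalised counts (CPM, linear axis from 0) of Il4, Tigit, Cd160, Il21, Cxcr5, Bcl6, Gata3 and Myc in each library of the 4 primed groups, with bars for means and error bars for the SD (n = 3). Il4, Tigit and Cd160 lie lower in all Batf3-/- than in all WT CD62L- libraries, and Cd160 lies the other way in the CD62L+ cells.

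Genes of effector migration and adhesion had a median below 0. Of 24 tested, 20 lay below 0 and 9 were lower without overlap, with 0 higher, against 5.69% and 8.44% of all genes. The median was -0.25, and -0.14 without the first Batf3-/- library. None was called in edgeR, where 9 had an unadjusted p under 0.05, against 10.5% of all genes. DESeq2 and limma voom called 4 lower each, against 212 and 54 of all genes tested. With the replicate term 3 passed, all lower, against 0.165% of all genes. Anxa2, a membrane-organising annexin, was at 155, 142 and 126 CPM in the WT libraries and 103, 92.5 and 85.5 CPM in the Batf3-/- libraries (log2 fold change -0.59, SE 0.12, adjusted p = 0.0973 without and 0.012 with the replicate term). S100a11, a calcium-binding partner of annexins, was at 195, 209.9 and 231 CPM in the WT libraries and 132, 155 and 163 CPM in the Batf3-/- libraries (log2 fold change -0.50, SE 0.10, adjusted p = 0.114 without and 0.0231 with the replicate term). Cxcr4, the receptor for CXCL12, was at 57.5, 39.7 and 45.0 CPM in the WT libraries and 33.5, 24.1 and 28.0 CPM in the Batf3-/- libraries (log2 fold change -0.73, SE 0.22, adjusted p = 0.285 without and 0.0293 with the replicate term). The 3 genes had no overlap between the groups.

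The inflammatory chemokine receptor Ccr2 was at 5.61, 10.5 and 13.1 CPM in the WT libraries and 0.877, 1.48 and 1.26 CPM in the Batf3-/- libraries (adjusted p = 0.321). Cxcr6, a receptor of tissue-homing T cells, was at 40.0, 21.8 and 27.4 CPM in the WT libraries and 13.0, 7.26 and 11.7 CPM in the Batf3-/- libraries (adjusted p = 0.372). Itgal, the alpha chain of the integrin LFA-1, had 916 ± 7.62 CPM in WT and 775 ± 78.3 CPM in Batf3-/- recipients. Each of these was lower in all Batf3-/- libraries, and none passed with or without the replicate term. In CD62L+ cells the list's median was -0.40, with 14 members lower without overlap and 0 higher, against 6.22% and 6.9% of all genes there. The activation marker Cd44, used in the sort, was at 256 ± 35.9 CPM in WT and 191 ± 32.9 CPM in Batf3-/- recipients in the CD62L- cells (adjusted p = 0.372).

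Th1 and cytotoxic genes were mixed. Of 19 tested, 3 were higher and 2 lower without overlap, against 8.44% and 5.69% of all genes, with a median of 0.22 in CD62L- and -0.31 in CD62L+ cells. The CD62L- median turned to -0.10 without the third Batf3-/- library. Ifng, the cytokine of Th1 cells, was at 4.68 ± 1.30 CPM in WT and 6.13 ± 1.86 CPM in Batf3-/- recipients, and Tbx21, their master factor, at 3.85 ± 0.368 CPM in WT and 2.87 ± 0.751 CPM in Batf3-/- recipients; both overlapped. Cxcr3 was at 13.7 ± 2.54 CPM in WT and 13.8 ± 1.99 CPM in Batf3-/- recipients. Gzmb, the protease granzyme B, was at 4.57, 4.99 and 3.69 CPM in the WT libraries and 0.663, 0.179 and 0 CPM in the Batf3-/- libraries, lower in every Batf3-/- library at a low level (adjusted p = 0.445).

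Of the 14 Th17 genes, 10 lay above 0, and 3 were higher without overlap, with 0 lower, against 8.44% and 5.69% of all genes. Their median of 0.39 rests largely on genes of low counts and was 0.14 without the first Batf3-/- library. Ccr6, a receptor of Th17 cells and B cells, was at 3.84, 3.77 and 7.55 CPM in the WT libraries and 11.9, 13.9 and 13.3 CPM in the Batf3-/- libraries (adjusted p = 0.387). Il17a, the defining Th17 cytokine gene, was at 0.218 ± 0.199 CPM in WT and 0.582 ± 0.685 CPM in Batf3-/- recipients. The regulatory T cell list had a median of 0.05 (0.19 without the first Batf3-/- library). Foxp3, its master factor, was at 7.82, 6.25 and 9.05 CPM in the WT libraries and 7.74, 8.11 and 10.7 CPM in the Batf3-/- libraries. Il2ra, the high-affinity chain of the interleukin 2 receptor, was at 5.07, 3.53 and 2.94 CPM in the WT libraries and 6.08, 7.26 and 4.08 CPM in the Batf3-/- libraries. Both overlapped, and neither was called. Il1r1, the interleukin 1 receptor, was at 23.9 ± 8.11 CPM in WT and 15.9 ± 5.63 CPM in Batf3-/- recipients, and Prdm1, a repressor of the Tfh programme, at 1.56 ± 1.24 CPM in WT and 0.429 ± 0.523 CPM in Batf3-/- recipients, both with wide spreads.

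Heat shock genes almost all had log2 fold changes above 0, small for most. Of 17 tested, 16 lay above 0, against 51% of all genes, and 8 were higher without overlap, against 8.44%, with 0 lower. The median was 0.25, and 0.16 without the first WT library. None was called in edgeR, where 8 had an unadjusted p under 0.05, against 10.5% of all genes. DESeq2 called 3 higher and limma voom 1, against 219 and 25 of all genes tested. Without the first Batf3-/- library edgeR called 2 higher, against 10 of all genes. Hspe1, Hspa1a and Hspa1b passed with the replicate term. Hspa1b, an inducible HSP70 gene, averaged 12.5 ± 1.38 CPM in WT and 48.5 ± 27.4 CPM in Batf3-/- recipients and reached 22.1, 46.7 and 76.8 CPM in the single Batf3-/- libraries (log2 fold change 1.95, SE 0.39, adjusted p = 0.0973 without and 0.0277 with the replicate term). Hspa1a, its near-identical copy with which it may share reads, was at 35.1, 52.8 and 56.2 CPM in the WT libraries and 72.2, 147 and 245 CPM in the Batf3-/- libraries (log2 fold change 1.69, SE 0.38, adjusted p = 0.136 without and 0.0265 with the replicate term). In both genes the Batf3-/- libraries were far apart, and the third was the highest, which is also the library with the largest share of ribosomal RNA counts (16.7%). The part of that share in the result was not tested. Hspe1, the mitochondrial co-chaperonin, was at 36.0, 43.2 and 47.6 CPM in the WT libraries and 55.2, 72.5 and 67.6 CPM in the Batf3-/- libraries and did not overlap (log2 fold change 0.62, SE 0.13, adjusted p = 0.115 without and 0.0124 with the replicate term). In CD62L+ cells 12 of the 17 were higher without overlap, against 6.9% of all genes there, at a median of 0.37.

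Among growth genes, Myc, the transcription factor that drives biosynthesis after T cell activation, was at 38.2, 49.3 and 47.7 CPM in the WT libraries and 70.9, 70.9 and 80.3 CPM in the Batf3-/- libraries, without overlap (log2 fold change 0.72, SE 0.13, adjusted p = 0.0757 without and 0.041 with the replicate term), and was also higher in CD62L+ cells, at 72.4 ± 6.15 CPM in WT and 102 ± 7.97 CPM in Batf3-/- recipients (log2 fold change 0.49, adjusted p = 0.374). It was the only member of the early antigen receptor response list to pass in either fit, and that list had a median of 0.175 with 14 of 20 above 0. The median turned to -0.049 without the third Batf3-/- library and was 0.358 without the first. Ribosome biogenesis factors had 16 of 20 above 0 and a median of 0.19. Of them 3 were higher and 1 lower without overlap, against 8.44% and 5.69% of all genes. Polr1b, a subunit of RNA polymerase I, was at 12.3, 15.2 and 6.28 CPM in the WT libraries and 18.5, 19.1 and 22.5 CPM in the Batf3-/- libraries (adjusted p = 0.247). Subunits of oxidative phosphorylation had 17 of 20 above 0 and a median of 0.08, and glycolytic enzymes 10 of 16 and 0.06.

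Cell division genes had medians near 0, 0.06 for G1/S and 0.03 for G2/M, with 15 and 12 of 20 above 0. Cdt1, a licensing factor of DNA replication, was at 13.4 ± 1.10 CPM in WT and 20.7 ± 2.14 CPM in Batf3-/- recipients (adjusted p = 0.136). Cholesterol synthesis genes had 5 of 19 members lower without overlap and 0 higher, against 5.69% and 8.44% of all genes. Their median was -0.10. Sqle, a rate-controlling oxygenase of that pathway, was at 21.9, 27.1 and 27.4 CPM in the WT libraries and 20.9, 13.4 and 16.4 CPM in the Batf3-/- libraries (adjusted p = 0.309). BCL2 family and Fas genes had a median of -0.09, with Bcl2, the survival factor, at 30.2 ± 4.91 CPM in WT and 41.1 ± 2.38 CPM in Batf3-/- recipients and the death receptor Fas at 68.8 ± 6.60 CPM in WT and 55.0 ± 6.77 CPM in Batf3-/- recipients. None of the genes in these 8 lists was called in edgeR, and Myc alone among them passed with the replicate term. Costimulatory receptors (median -0.01, 1 of 15 higher and 1 lower without overlap) and cytokine receptors (median -0.08, 2 of 26 higher and 4 lower) gave no calls in edgeR either, apart from Il17rb and Ifnar1 with the replicate term. Over all genes 8.44% were higher and 5.69% lower without overlap.

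**Figure D5:**
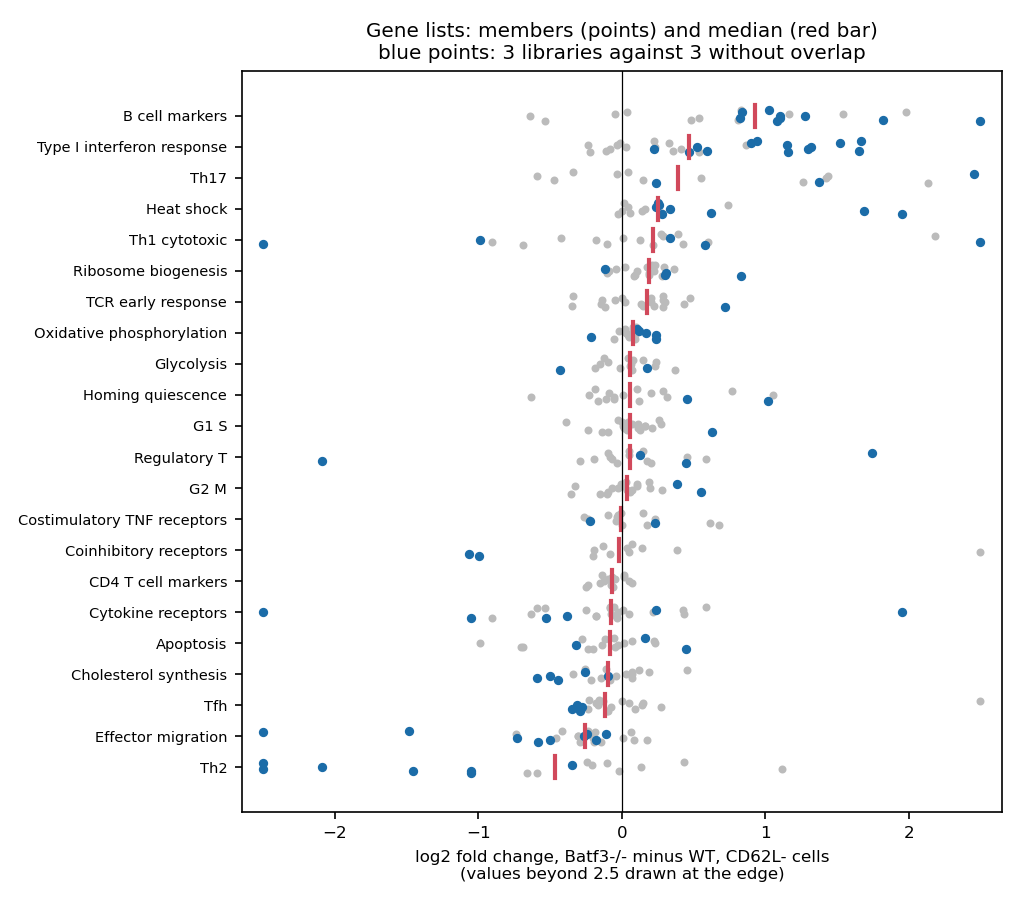
Log2 fold changes (Batf3-/- minus WT, CD62L- cells) of the members of each of the 20 programme lists and of the B cell and CD4 T cell marker lists (points; values beyond 2.5 drawn at the edge) with the list's median (red bar), sorted by median. Blue points are genes whose 3 values in one group all lie above those of the other. Of the lists drawn, B cell markers and interferon genes have the highest medians (0.93 and 0.47) and Th2 genes the lowest (-0.47).

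Transcripts of B cells were present in all libraries of the sorted T cells. Of 20 listed B cell markers, 17 lay above 0, 9 were higher without overlap, against 8.44% of all genes, and 0 lower, and the median was 0.93. At an unadjusted p under 0.05 in edgeR 13 were higher, against 1253 of all 19942 genes. DESeq2 called 8 higher and limma voom 0, against 219 and 25 of all genes tested. Fcmr, the IgM Fc receptor, passed with the replicate term, at 0.830, 1.16 and 0.833 CPM in the WT libraries and 1.75, 3.17 and 5.14 CPM in the Batf3-/- libraries (log2 fold change 1.82, SE 0.35, adjusted p = 0.0817 without and 0.0485 with the replicate term). The invariant chain gene Cd74 was at 45.3, 47.5 and 35.3 CPM in the WT libraries and 84.6, 83.5 and 58.7 CPM in the Batf3-/- libraries and Cd79b, a signalling chain of the B cell receptor, at 3.41, 3.43 and 2.94 CPM in the WT libraries and 5.69, 10.1 and 5.26 CPM in the Batf3-/- libraries; neither was called. Summed over the 19 markers other than Ighm, their level ran from 86.2 to 91.6 CPM in WT and from 137 to 200.1 CPM in Batf3-/- CD62L- libraries. It ran from 569 to 826 CPM in CD62L+ and from 176 to 224 CPM in naive libraries. Ighm, left out after its level was seen, averaged 658 ± 57.2 CPM in WT and 636 ± 82.7 CPM in Batf3-/- recipients and with it the sums overlapped, at 689.5 to 800.4 and 709 to 897 CPM. None of the 20 markers was at 0 in either group. The part of B cell transcripts in the calls of Wdfy4 and the other genes was not tested.

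Markers of other cells were low in sum beside those of CD4 T cells, though some genes had more counts in the Batf3-/- libraries. Plasma cell markers summed to 181 to 257 CPM in WT and 176 to 219 CPM in Batf3-/- CD62L- libraries. The stromal and endothelial list summed to 178 to 207 CPM and 170 to 219 CPM. The list of CD8, NK and gamma-delta T cells summed to 58.5 to 70.0 CPM and 65.8 to 71.5 CPM. The dendritic cell and macrophage list summed to 66.2 to 78.0 CPM in WT and 78.8 to 85.3 CPM in Batf3-/- libraries, without overlap. Of its 15 tested genes 0 were called, 9 lay above 0 and 5 below. Without overlap 1 was higher and 0 lower, against 8.44% and 5.69% of all genes. Itgax, which encodes CD11c, Clec9a and Fcgr1 had 0 counts in both groups. Before scaling for library size, Sirpa had 0 counts over the WT and 160 over the Batf3-/- libraries. Flt3 had 4 and 66, C1qb 120 and 504, and Adgre1 68 and 48. Cxcl13, of the stromal list, had 14 and 1559 counts, though its CPM overlapped between the groups. Of the 6 tested genes of that list 0 were called and 0 were higher without overlap. The type 1 dendritic cell receptor Xcr1 was at 0.696 ± 0.505 CPM in WT and 0.689 ± 0.124 CPM in Batf3-/- recipients. Erythroid markers summed to 48.0 to 102 CPM in WT and 9.78 to 50.8 CPM in Batf3-/- libraries, with 0 called.

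Of the 10 called genes, 9 had the same sign in CD62L+ cells, where 59.7% of all genes did, and 6 of them had CD62L+ groups that did not overlap in that direction, where 6.9% of all genes were higher and 6.22% lower without overlap. In the CD62L+ comparison 1153 genes (5.78%) had an unadjusted p under 0.05, and 32 (0.16%) passed with the replicate term. The test of whether the recipient difference itself differed between CD62L- and CD62L+ cells called 0 of 19942 genes in edgeR's quasi-likelihood test, with 860 genes (4.31%) at an unadjusted p under 0.05. With the replicate term it called 1, Cd160, which also passed with limma voom, with no filter on low counts and with thinned counts, and DESeq2's Wald test called 36, Cd160 among them. For Dapl1, whose log2 fold changes were 1.02 in CD62L- and 0.06 in CD62L+ cells, the difference was 0.96 (SE 0.19, adjusted p = 0.426 in edgeR). DESeq2's Wald test called it (0.94, adjusted p = 0.000437), and no other fit did. The same test called Wdfy4 and H2-Q2 (adjusted p = 0.000639 and 0.0196), which did not pass in edgeR. The 2 subsets may come from the same animals, which the labels do not say.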

How the data were processed

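Per the labels' protocols, RNA of sorted cells was amplified by PCR as whole-transcriptome cDNA before library construction. The authors' tools included FastQC, Trimmomatic 0.36, STAR 2.7.3a, and featureCounts from Subread 1.6.5 (build mm10), per the submitters' processing notes. The authors deposited raw counts for 49492 genes in 15 libraries, without normalization. The annotation release and the strand setting are not given in the sources used here. Reads of overlapping genes may therefore enter each other's counts. PCR copies cannot be told from separate molecules.

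Genes were kept with filterByExpr (minimum count 10, 19942 genes) and scaled by TMM. One model with a term per group over all 15 libraries was fitted with edgeR 4.0.16 (R 4.3.3; quasi-likelihood, robust), Benjamini-Hochberg adjusted, threshold 0.05. Standard errors are the log2 fold change over the root of F. CPM are counts over scaled library sizes. Replicates of a group differed by far more than sampling noise. Groups and replicate numbers came from the titles. Deviations from group means (log2 of CPM + 1) of same-numbered libraries correlated at 0.253, 0.116 and 0.173 between the CD62L- groups and at 0.307, 0.203 and 0.239 between the CD62L+ groups, so by the rule used (all above 0.1) the numbers pair the libraries; the labels do not say what they mark. A fit with the replicate number as a term is therefore given where it changes a call. The fit was tested on simulated data, where it recovered 46 of 100 changes of 2-fold and 84 of 100 of 4-fold, with 3 false calls. The changed genes were drawn from those above 1 CPM in WT CD62L- cells. Libraries were simulated without the correlation of same-numbered libraries. These figures therefore do not give the power or the error of the real comparison.

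Named genes are a fixed list of 25, the called genes of at least 5 CPM with the largest changes, and called members of 20 programme and 8 marker lists; other list members were chosen after their values were seen. A few of these genes are not reported here. The members and lists were chosen with earlier results of these data known. Alternatives were RLE scaling, other filters, DESeq2 1.42.0, limma 3.58.1 (voom), the 6 libraries alone, thinned counts, each library left out, and, added after seeing the data, the third library of both CD62L- groups left out.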

Additional observations from a re-analysis of the deposited data

Results flagged for a closer look

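For 2 of the named genes reported here the hosts separated in opposite directions in the 2 subsets, every CD62L- library moving one way and every CD62L+ library the other. Only named genes were searched, not all 19942 genes tested. Over all genes 8.44% were higher and 5.69% lower without overlap in CD62L- cells. In CD62L+ cells the shares were 6.9% and 6.22%. The log2 recipient difference in CD62L- minus that in CD62L+ cells was -2.02 for Cd160 (SE 0.29, adjusted p = 0.135 in edgeR's quasi-likelihood test), a coinhibitory receptor that was lower in CD62L- and higher in CD62L+ cells from Batf3-/- recipients. For the Tfh cytokine gene Il21 it was -0.80 (SE 0.24, adjusted p = 1), also lower in CD62L- and higher in CD62L+ cells. Neither passed in that test. Cd160 passed with the replicate term (adjusted p = 0.0117), with no filter on low counts (0.0402), with thinned counts (0.045), with limma voom (0.00743) and with DESeq2 (1.29e-07).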

How the results depend on the processing

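Of the 10 genes called in CD62L- cells, H2-Q2, Myo6 and Oas1a passed in 14 of 15 alternatives, all but the fit of the 6 libraries alone (adjusted p = 0.0914, 0.0512 and 0.189). The number called in CD62L- cells was 431 with DESeq2, 79 with limma voom, 0 with the 6 libraries alone (1082 at an unadjusted p under 0.05, 17434 genes tested), 74 with the replicate block and 4 to 31 with each library left out. In CD62L+ cells, against 1, it was 5 with no filter, 5 with the stricter filter (1 CPM in 3 libraries, mean count 20), 142 with DESeq2, 70 with voom, 0 with those 6 libraries alone, 32 with the replicate block, 2 without the third library of both CD62L- groups, and 0 to 1 with each library left out. For the difference between subsets, against 0, it was 1 with no filter, 36 with DESeq2, 1 with voom, 1 with the replicate block, 1 with thinned counts, 2 without the third library of both groups and 0 to 2 with each library left out. The cause of these changes was not tested. The sign changed for 5 uncalled genes. They were Icos, at 0.0002 (log2 -0.026 with RLE scaling and DESeq2, -0.015 with no filter, -0.017 with thinned counts, -0.123 to 0.097 with each library left out), Cxcr3 (log2 -0.014 with RLE scaling and DESeq2, -0.004 with no filter, -0.07 with voom, -0.013 with the replicate block, -0.084 to 0.175 with each library left out), Pdcd1 (-0.057 to 0.143), S1pr1 (-0.336 to 0.001) and Klf2 (-0.392 to 0.035). On leaving out 1 library, the medians of the plasma cell, G2/M, glycolysis and costimulatory lists also crossed 0. The third WT CD62L- library is the shallowest of the 15, which limits low genes.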

Other observations

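Beyond the lists, several genes passed only in the paired fit and were chosen here after their values were seen. Vdr, the vitamin D receptor, was lower in cells from Batf3-/- recipients (log2 fold change -1.13, adjusted p = 0.0493), as were F2r, a thrombin receptor (-0.98, adjusted p = 0.0304), Lgmn, a lysosomal protease (-0.71, adjusted p = 0.0158), and Ptpn2, a phosphatase that dampens cytokine signals (-0.35, adjusted p = 0.0493). The ribosomal protein genes Rpl38 (0.54) and Rpl28 (0.49) were higher, and the share of counts on such genes was higher in all Batf3-/- CD62L- libraries too.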
